A study of Drosophila melanogaster with 2 samples.

Results

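The regions described here are the binding peaks of NC2beta in Drosophila embryos that lie just before the start of a gene at a promoter with coding start sites on one strand only. NC2beta (the Dr1 homologue) is a subunit of Negative Cofactor 2. A peak was taken as a member when every protein-coding transcription start site (TSS) within 250 bp of its summit lay on the same strand, when the nearest TSS was at most 500 bp from the most upstream coding TSS of its gene, and when the summit fell on that TSS or up to 250 bp upstream of it. Of the optimal peaks that the authors kept from both replicates together, 867 met the rule and 3030 did not, so that the members were 22.2% of all (95% exact binomial interval 21.0% to 23.6%). Of the other peaks, 327 were at the same kind of promoter with the summit downstream of the TSS, 543 had coding TSSs on both strands within 250 bp, 219 were at internal alternative promoters and 1941 had no coding TSS within 250 bp.

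All libraries came from whole embryos of mixed sex, 0 to 24 h old, of a transgenic Drosophila melanogaster line that stably expresses NC2beta with a C-terminal green fluorescent protein (eGFP) tag, the strain being named NC2beta-GFP. An anti-GFP antibody was used to precipitate chromatin that had been sonicated to 200 to 800 bp. There was 1 group with 2 biological replicates, numbered 1 and 3, and no second genotype, stage or treatment. The tagged protein is read in all cells of the embryo at once, so a low peak in all cells and a high peak in few cells cannot be told apart.

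As background, NC2 is a heterodimer of NC2alpha and NC2beta, joined through histone folds, that binds the TATA-binding protein on promoter DNA and blocks the entry of TFIIA and TFIIB. In Drosophila extracts it was purified as an activity that lowers transcription from TATA box promoters and raises it from promoters with a downstream promoter element (DPE). Fly promoters are commonly divided into those with a TATA box, an initiator or a DPE at fixed places, typical of developmental genes, and those with the DNA replication-related element (DRE), Motif 1, Motif 6 or Motif 7, typical of genes active in all cells. Ribosomal protein genes of animals start within a run of pyrimidines, the TCT motif, in place of an initiator.

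Promoters of high members show what these elements look like in front of the summit's start site. The 5 sequences below are the 150 bases that end 1 base before the TSS, read on the gene's strand from the Release 6 genome of RefSeq (dm6), with each DRE, Motif 1, Motif 6, Motif 7 and TATA box in capitals. They belong to high members with 1 or more of these elements whose window held no annotated UTR. CG1142 and fok, with summits 187 and 149 bp upstream, also met this and are not shown. The sequences shown thus all have summits within 46 bp of the TSS. The regions are chr3R:29220022-29220171 (plus strand) for eEF1gamma, a subunit of the elongation factor that brings tRNA to the ribosome, chr3L:3222961-3223110 (minus) for RpL28, chr2L:419802-419951 (plus) for RpLP1, chr3L:18898954-18899103 (plus) for RpL26 and chr3R:25685052-25685201 (minus) for RpL27.
eEF1gamma: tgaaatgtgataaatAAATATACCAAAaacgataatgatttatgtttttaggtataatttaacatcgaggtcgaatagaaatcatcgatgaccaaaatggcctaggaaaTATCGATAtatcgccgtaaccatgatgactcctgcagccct
RpL28: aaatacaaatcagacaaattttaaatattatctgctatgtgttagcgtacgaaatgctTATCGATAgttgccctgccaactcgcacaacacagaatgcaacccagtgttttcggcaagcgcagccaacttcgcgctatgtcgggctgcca
RpLP1: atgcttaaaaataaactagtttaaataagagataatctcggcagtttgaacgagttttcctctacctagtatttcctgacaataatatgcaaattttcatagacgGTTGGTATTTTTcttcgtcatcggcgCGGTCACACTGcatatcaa
RpL26: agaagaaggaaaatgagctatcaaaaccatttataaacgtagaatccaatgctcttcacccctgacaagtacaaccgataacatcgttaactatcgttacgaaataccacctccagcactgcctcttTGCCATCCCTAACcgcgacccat
RpL27: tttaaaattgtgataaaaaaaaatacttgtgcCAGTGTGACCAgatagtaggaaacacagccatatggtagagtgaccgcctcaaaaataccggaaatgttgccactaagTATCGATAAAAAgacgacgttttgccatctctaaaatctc

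In eEF1gamma the capitals are Motif 6, from 135 to 124 bases before the TSS, and the DRE, from 41 to 34 before it, while the summit lay 16 bp upstream. The DRE of RpL28 covered bases 92 to 85 before its TSS and its summit lay 46 bp upstream. In RpLP1 the capitals are Motif 6 and then Motif 1, the latter 19 to 9 bases before the TSS, and the summit at 46 bp fell just before Motif 6. Motif 7 of RpL26 stood 23 to 11 bases before the TSS, with the summit at 20 bp and thus inside it. The first run of capitals in RpL27 is Motif 1, read on the other strand, and the last is a DRE that overlaps a match to the TATA box with 1 mismatch, so these bases count for both elements.

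The start sites of the 3 highest members with a TCT motif are shown next, because ribosomal protein genes, among them most members with this motif, were the high group. Each window of 30 bases has 17 bases before the TSS, then the TSS base and 12 after it, with the motif in capitals: chr3L:1668642-1668671 (minus strand) for RpL23A, chr3L:22076075-22076104 (plus) for RpLP0 and chr3R:5624457-5624486 (plus) for RpL13A.
RpL23A: acaactgcccctcagtttTCCTTTTCattt
RpLP0: ggtgccgccgccaacttcaCTCTTTCCgtt
RpL13A: ctgtcaacgcaacttccgccTTCTTTCCgt

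The motif opened 1, 2 and 3 bases after the annotated TSS in these genes. All of them code for proteins of the large ribosomal subunit.

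Where the summit lay farther from the gene, the DNA under it was often rich in A and T. The 4 windows below run 60 bases to each side of the summit base, which is in capitals, and were read on the strand of the gene: chr3L:19590560-19590680 (minus) for CG14100, chr3L:1668698-1668818 (minus) for RpL23A, chr2L:13835398-13835518 (plus) for CenG1A and chr3R:12449131-12449251 (plus) for CG18549. They are the 4 highest members with a summit over 90 bp upstream.
CG14100: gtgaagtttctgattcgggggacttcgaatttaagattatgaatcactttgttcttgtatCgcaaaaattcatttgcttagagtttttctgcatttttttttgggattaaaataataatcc
RpL23A: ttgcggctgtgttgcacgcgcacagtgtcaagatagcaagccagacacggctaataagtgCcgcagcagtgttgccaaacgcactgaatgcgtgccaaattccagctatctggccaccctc
CenG1A: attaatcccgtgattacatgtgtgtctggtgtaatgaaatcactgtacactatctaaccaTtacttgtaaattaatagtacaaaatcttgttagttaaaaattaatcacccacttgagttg
CG18549: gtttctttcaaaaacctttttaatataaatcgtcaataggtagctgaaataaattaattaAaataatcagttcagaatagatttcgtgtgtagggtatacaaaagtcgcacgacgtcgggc

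The GC share of these windows was 30.6% in CG14100, 55.4% in RpL23A, 30.6% in CenG1A and 32.2% in CG18549. The window of the ribosomal protein gene was thus the GC-rich exception among them.

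The 867 summits were densest close to the start site. Their distance upstream had a median of 70 bp (quartiles 35 and 126.5 bp), and the fullest 25 bp step was the one from 25 to 49 bp, with 168 peaks. The first step held 145 peaks upstream, at 0 to 24 bp, and 121 downstream, at 1 to 25 bp. Downstream steps began 1 bp farther from the TSS than upstream steps throughout. Each later step held more upstream than downstream summits, down to 30 against 5 in the last, which ended at 250 bp. The downstream summits had a median distance of 40 bp (quartiles 17 and 81 bp). Of the 1194 peaks at one-strand promoters, 72.6% (exact binomial interval 70.0% to 75.1%) thus had the summit on the upstream side. The side and the distance are what the rule used, so these figures describe the set.

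**Figure D1:**
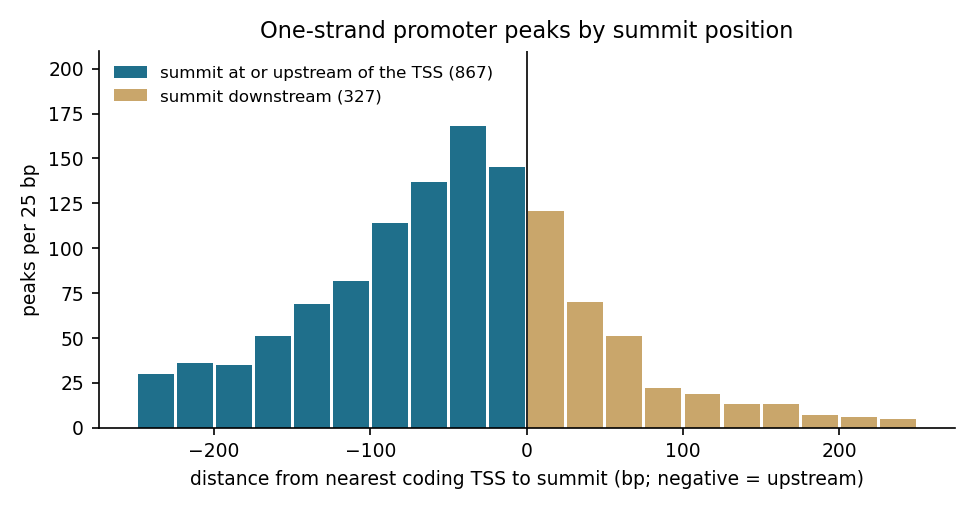
Number of one-strand promoter peaks per 25 bp (vertical axis) by distance of the summit from the nearest coding TSS in bp (horizontal axis, negative upstream). Blue bars are the 867 upstream peaks, tan bars the 327 downstream peaks; upstream bars fall slowly from 168 at 25 to 49 bp to 30 at 225 to 250 bp, and downstream bars fall from 121 to 5.

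At the edges of the rule, the summits of RpL36A, RpL10Ab, drongo, nuf and dhd fell on the TSS base itself and were kept, with heights of 523, 122, 117, 92.0 and 84.6. CG9399 (height 237) and RpL10 (171), with summits 1 bp downstream, were not. At the far edge CG34136 at 250 bp (74.4) and CG34038 at 247 bp (95.2) were members, and CG7849 (187) and sff (133), both at 251 bp, were not. CG17597 used a TSS 500 bp and isoQC one 496 bp from the most upstream TSS of the gene, while zip at 502 bp and Oatp74D at 516 bp were left out. Height is the authors' signal value for a region. Its unit is not given in the sources used here, so heights are read against each other within a list.

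The members belonged to 862 genes, or 6.18% of the 13945 annotated protein-coding genes, against 327 genes (2.34%) with a downstream summit. By strand 422 lay before plus strand and 445 before minus strand genes. The nearest TSS was the most upstream one of its gene in 787 members, and 540 were at genes with 1 annotated coding TSS. A single TSS position lay within 250 bp of the summit in 753 members, and 25 had TSSs of more than 1 gene, on the same strand, in that window. The genes MFS18, Sobp, CG8306, Toll-7 and Ppcs had 2 member peaks each, with summits 200 to 203 bp apart. The 2 regions overlapped by 100 to 199 bp in each gene, so that they may be parts of 1 broader region; how the caller separates summits is not given in the labels. At MFS18 these lay 10 and 212 bp upstream with heights 138 and 115. At Sobp both peaks had the same nearest region in replicate 1, and at Ppcs in replicate 3, so these pairs were not resolved in every list.

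Summits mostly fell between annotated genes. That was so for 699 members (80.6%), while 53 lay in an intron and 41 in an exon of another gene, and 74 in a transcript of the same gene that starts farther upstream. Median heights in these places were 109.8, 102, 117 and 117 in that order. The rule puts the summit at or before a TSS near the start of its gene, which favours a place between genes. Shares of other peaks in these places were not computed. A coding TSS on the opposite strand lay 251 to 500 bp from the summit in 189 members (21.8%) and 501 to 1000 bp away in 108, and 570 (65.7%) had none within 1000 bp. The start of a non-coding RNA gene was within 250 bp in 32 members. In 28 of these the annotation calls it an ncRNA, and the 4 small RNA genes were tRNA:His-GTG-1-3 by CG8490, tRNA:Trp-CCA-2-2 by CG30122, snoRNA:Psi18S-920 by RpL10Ab and snoRNA:Me18S-G1358c by RpL15 (named after their values were seen).

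Both replicates held nearly all of these peaks, which the choice of the list favours. The optimal peaks were chosen by irreproducible discovery rate from these same replicates. A region within 250 bp of the pooled summit was listed in both for 863 members (99.5%). Of the 867 members and 3030 other optimal peaks together, 3884 had a region in both. Presence in both was thus not particular to the members and is no separate test of them. Each replicate's list of 30000 regions also runs far down in height. Among as many of the highest regions of replicate 1 alone as there are optimal peaks, 775 members (89.4%) were found, and among those of replicate 3 alone 712 (82.1%). The choice of the list favours these shares too. They were not computed for the other optimal peaks, so they are not read as a trait of the members. The replicate summits lay a median of 24 bp from each other, and 75.3% of pairs were within 50 bp. In 775 of the 863 (89.8%) both replicate summits were at or upstream of the TSS. For members whose pooled summit was over 25 bp upstream that share was 94.1%, and for those within 25 bp it was 69.1%, so the side of the nearest summits was less well fixed by these 2 libraries.

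Relative heights, that is the height of a region divided by the median of that replicate over all optimal peaks, were within 1 log2 unit of each other in 93.6% of the 863 members and in 93.9% of all optimal peaks with both regions. The Spearman correlation of the replicate heights over the 863 members was 0.66, a description over peaks that come from the same 2 libraries.

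Members were higher than their downstream counterparts. The pooled height had a median of 110.1 in the 867 members (quartiles 87.2 and 155, range 74.2 to 1333) and of 95.8 in the 327 downstream peaks (quartiles 83.6 and 124, highest 641). Over all optimal peaks the median was 112, and 417 members (48.1%) but 103 downstream peaks (31.5%) were above it, an odds ratio of 2.02 (95% interval 1.53 to 2.67; two-sided Fisher's exact test, p = 2.17e-07). The rule did not use height. By the same exact test, with the heights of replicate 3 alone the odds ratio was 1.95 (p = 8.07e-07) and with those of replicate 1 alone 1.79 (p = 1.55e-05), and the median relative heights were 0.98 and 0.98 for members against 0.90 and 0.83 for downstream peaks in replicates 1 and 3. Peaks are not replicates, so these p-values describe the lists of 1 group of embryos. The odds ratio ranged from 1.51 (exact p = 0.00265) with start sites counted within 100 bp to 3.02 with genes of 1 TSS over the 7 alternatives tried. Between divergent genes 57.3% of peaks were above the same median.

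Within the members, height rose slightly with distance. Of the 4 distance bins, chosen after the data were seen, 0 to 50 bp upstream held 318 members, 51 to 100 bp held 249, 101 to 150 bp held 150 and 151 to 250 bp held 150. Their median heights were 101, 109, 125 and 127, while downstream peaks in the same distance bins had 96.4, 92.1, 106 and 96.3. Median relative heights were 0.94, 0.98, 1.20 and 1.10 in replicate 1 and 0.85, 0.96, 1.08 and 1.16 in replicate 3. Both bins beyond 100 bp were thus above both nearer bins in each replicate, while the order of the last bins differed. Over the members the Spearman correlation of distance and height was 0.17 with pooled heights, 0.13 in replicate 1 and 0.20 in replicate 3, which is a weak relation over peaks of the same libraries. Genes of cytoplasmic ribosomal proteins went the other way, being high and close, and without them the 4 medians were 97.9, 107, 123 and 127.

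**Figure D2:**
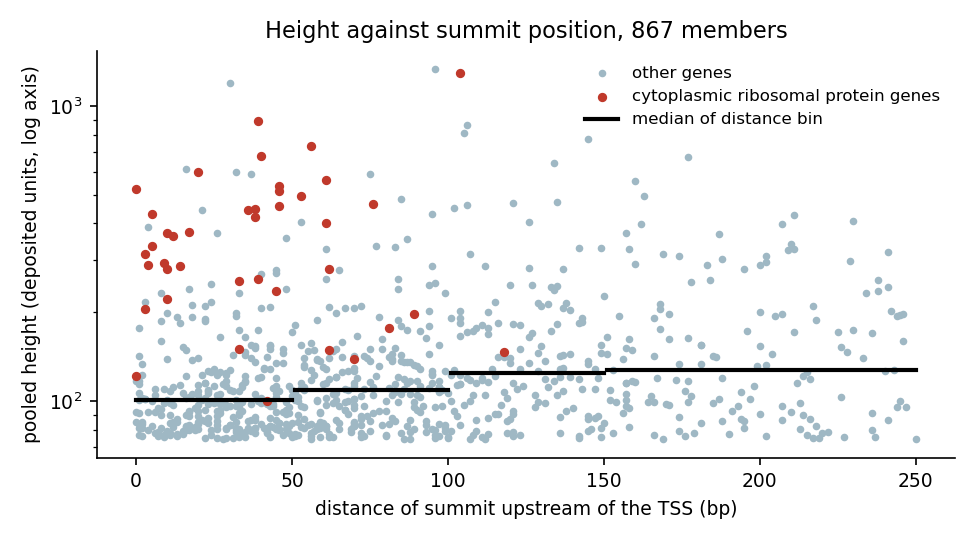
Pooled height of each of the 867 members in deposited units (vertical log axis) against the distance of its summit upstream of the TSS in bp (horizontal axis). Points are peaks, red for the 40 cytoplasmic ribosomal protein genes; black lines are the medians of the 4 distance bins, which go from 101 to 127, while 38 of the 40 red points lie within 100 bp of the TSS.

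Base composition under the summit moved with distance too. The median GC share of the bases within 50 bp of the summit was 45.5%, 40.6%, 33.7% and 33.7% in the 4 bins. The DNA itself has such a gradient whatever the summit. In all 867 members the window centred 25 bp before the TSS had 45.5% GC, that at 75 bp 40.6%, that at 125 bp 32.7% and that at 200 bp 30.7%, against 43.6%, 40.6%, 36.6% and 36.6% at all 19253 annotated coding TSSs. At 200 bp before the TSS the members with summits at 151 to 250 bp had 33.7% and those with summits within 50 bp had 29.7%. The part of base composition in the heights was not tested.

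Promoter elements were then searched at the nearest TSS of each peak. A TATA box (TATA, A or T, AA, then a purine, 1 mismatch allowed) was looked for from 40 to 20 bp before the TSS, an initiator (TCA, G or T, T, pyrimidine) and a TCT motif (C followed by TTT with a pair of pyrimidines on either side) within 10 bp of it, and a DPE (purine, G, A or T, pyrimidine, any base but T) beginning at base 28 when the A of an initiator is base 1. The MTE, a further downstream element, was looked for at base 18 of the same count with 1 mismatch. The DRE (TATCGATA), Motif 1, Motif 6, Motif 7, GAGA (GAGAG), the Zelda motif (CAGGTAG) and the E-box (CANNTG) were searched on both strands from 150 bp before to 50 bp after the TSS. The DRE and E-box read the same on both strands, and elements may overlap. A match states only that the letters are there.

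Elements of genes active in all cells were frequent at the members. A DRE was present in 117 (13.5%) against 6.79% of all coding TSSs, Motif 7 in 136 (15.7%) against 7.07%, Motif 1, the site of M1BP, in 73 (8.42%) against 3.39%, and Motif 6 in 23 (2.65%) against 1.54%. At least 1 of these 4 was found in 296 members (34.1%, exact interval 31.0% to 37.4%) and in 16.7% of all coding TSSs. It was found in 34.9% of downstream peaks as well. Peaks between divergent genes had a DRE in 14.5%, Motif 7 in 21.9%, Motif 1 in 8.47% and Motif 6 in 2.95%. These shares were thus not particular to the members. The TCT motif was at 40 members (4.61%) against 1.28% of all TSSs. Elements typical of regulated genes were not more frequent than at all TSSs: the TATA box was at 64 members (7.38% against 13.1%), the initiator at 97 (11.2% against 14.8%), the DPE at 20 (2.31% against 3.37%), GAGA, the site of the GAGA factor, at 219 (25.3% against 25.6%) and the Zelda motif, the site of the factor that opens the early embryonic genome, at 6 (0.692% against 1.16%). E-boxes were at 62.4% of members and 65.3% of TSSs. The MTE was at no member and at 0.119% of TSSs. None of the TATA box, initiator, TCT, DRE, Motif 1, Motif 6 and Motif 7 was found in 435 members (50.2%). In the window moved 200 bp upstream, the shares of the members were 4.96% for the DRE, 4.27% for Motif 7, 1.5% for Motif 1, 0.692% for Motif 6 and TCT and 2.88% for the initiator. There the TATA box was more frequent, at 11.6%, GAGA was at 17.1% and the E-box at 54.8%, and the Zelda motif share was the same.

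The shares depended on the mismatches allowed. With 1 mismatch, Motif 7 was at 55.0% of the members and 39.3% of all TSSs, Motif 1 at 19.0% and 9.38%, and Motif 6 at 12.7% and 8.92%. A TATA box without mismatch was at 2.42% of the members and 4.35% of all TSSs. Members thus stayed above all TSSs for the first 3 and below for the TATA box. The ratios for Motif 1, Motif 6 and Motif 7 were all smaller than without a mismatch.

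No element was found to differ between upstream and downstream peaks, with wide intervals. Of 12 elements searched, the MTE was at 0 peaks of either class and could not differ, and 0 of the others differed (two-sided Fisher's exact test with Benjamini-Hochberg adjustment, all adjusted p = 1; none had an unadjusted p under 0.05, the smallest being 0.311). The odds ratio was 0.98 for the DRE (95% interval 0.67 to 1.45), 1.14 for Motif 7 (0.78 to 1.67), 0.92 for the TATA box (0.56 to 1.55), 0.68 for the DPE (0.31 to 1.59) and 0.88 for the TCT motif (0.48 to 1.69). With intervals this wide, moderate differences were not detectable with these numbers of peaks. With start sites counted within 100 bp of the summit, the initiator was less frequent at upstream than downstream peaks (7.34% against 13.2%, odds ratio 0.52, exact test, adjusted p = 0.0328).

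**Figure D3:**
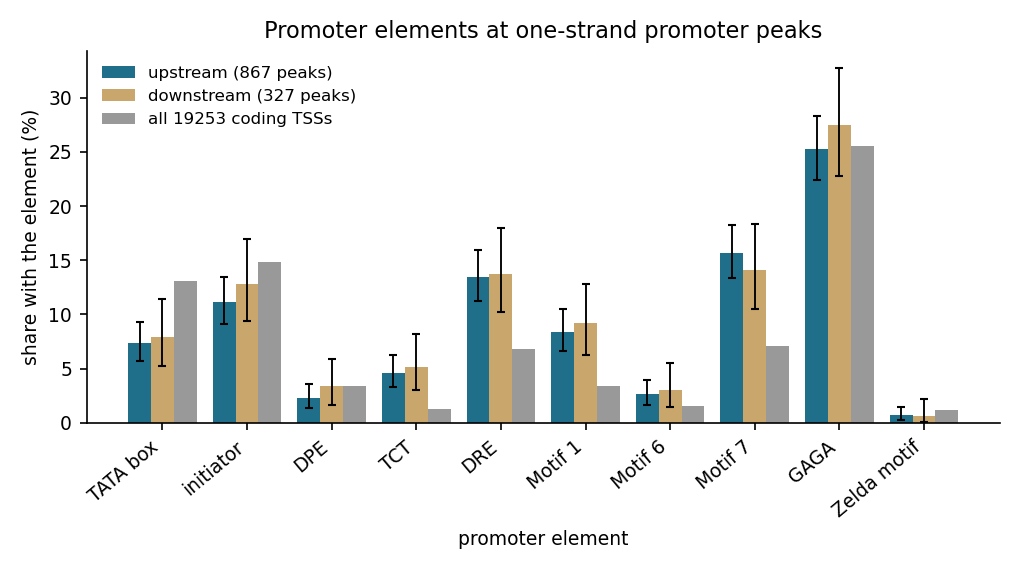
Share of promoters with each of 10 elements (vertical axis, percent) at the 867 upstream peaks (blue), the 327 downstream peaks (tan) and all 19253 coding TSSs (grey); whiskers are 95% exact binomial intervals. Blue and tan bars overlap in their whiskers for every element shown. Both stand above grey for the DRE, Motif 1, Motif 6, Motif 7 and TCT, though the tan whisker of Motif 6 reaches the grey level.

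The members were not uniform, and the element at the TSS went with where the summit lay. Motif 7 was at 67 of 318 members within 50 bp (21.1%), and then at 18.5%, 12% and 3.33% of the farther bins. The share with at least 1 of the DRE, Motif 1, Motif 6 and Motif 7 went from 41.5% (exact interval 36.0% to 47.1%) to 38.6%, 28% and 17.3% (11.6% to 24.4%), the last value being close to the 16.7% of all TSSs. The initiator went the other way, from 7.23% and 8.03% to 16% and 20.0%, and GAGA from 21.4% and 20.9% to 28.7% and 37.3%. The DPE was at 6 of 318, 1 of 249, 4 of 150 and 9 of 150 members, and the TCT motif at 25, 10, 3 and 2. TATA boxes showed no such order, with 8.18%, 7.63%, 8.0% and 4.67%.

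With 1 mismatch the Motif 7 shares of the 4 bins were 61.6%, 54.6%, 57.3% and 39.3%, so that the farthest bin was again the lowest and close to the 39.3% of all TSSs, while the middle bins were out of order. Motif 1 with 1 mismatch went from 24.5% and 18.5% to 15.3% and 12%.

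The same directions were seen when each replicate's own summits set the distance. Motif 7 was at 21.2% of the members with a replicate 1 summit within 50 bp and at 3.97% of those at 151 to 250 bp, and the shares were 20.2% and 5.13% with the summits of replicate 3. For the initiator they were 7.06% and 18.5% in replicate 1 and 4.96% and 19.2% in replicate 3, and for GAGA 21.9% and 36.4%, and 19.8% and 35.3%. The replicates share promoters, so the element calls are the same and the agreement is one of summit position. In medians, members with Motif 7 had the summit 51 bp upstream against 76 bp without it, those with a TCT motif 41 against 73 bp, those with an initiator 113 against 68 bp, those with a DPE 137.5 against 70 bp and those with GAGA 87 against 67 bp.

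**Figure D4:**
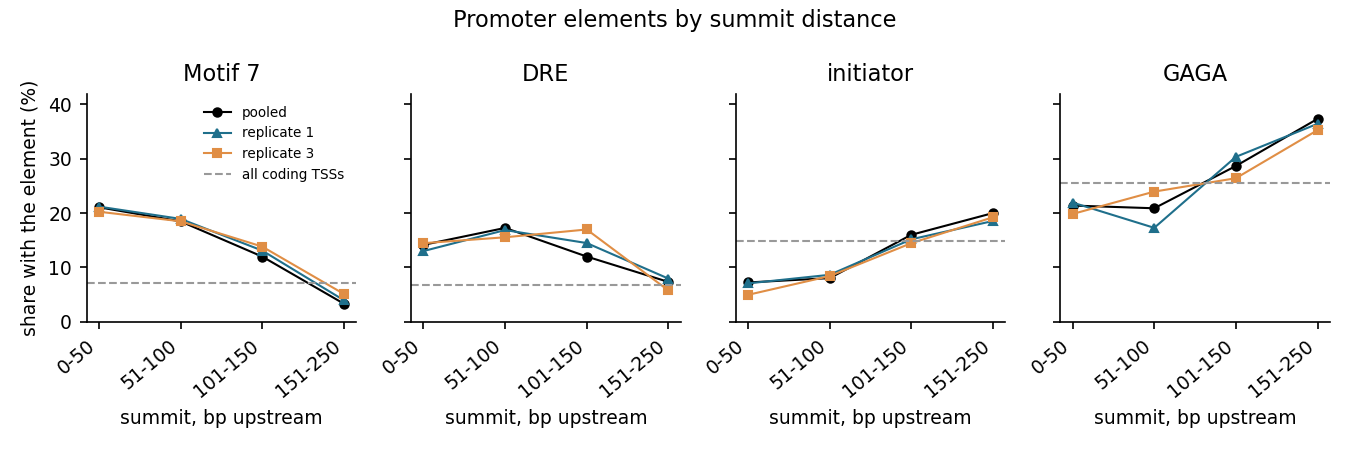
Share of members with Motif 7, DRE, initiator or GAGA (vertical axes, percent) in 4 bins of summit distance upstream of the TSS in bp (horizontal axes), with distance taken from the pooled list (black circles) or from replicate 1 (blue triangles) or replicate 3 (orange squares); the dashed line is the share at all coding TSSs. From the nearest to the farthest bin Motif 7 goes from 21.1% to 3.33% and the initiator from 7.23% to 20.0% in the pooled list, with each replicate's points close by.

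The position of the summit was weakly related, if at all, to that of the match found in the searched window. That window ended 150 bp before the TSS, so no match could lie under a summit at 151 to 250 bp. Such summits were those of 56 of the 219 members with GAGA, 11 of the 117 with the DRE and 5 of the 136 with Motif 7. The window thus limits the agreement that could be found. The match nearest the summit had its centre at a median of 23.5 bp before the TSS for Motif 7, 39.5 bp for the DRE and 2 bp for Motif 1, and 57 bp for GAGA. The summit was within 50 bp of it in 61% of the members with Motif 7, 53.8% with the DRE, 50.7% with Motif 1 and 37.9% with GAGA. Over members with the element, the Spearman correlation of its position with that of the summit was -0.01 for the DRE (n = 117), -0.0050 for Motif 1 (n = 73), -0.23 for Motif 6 (n = 23), 0.18 for Motif 7 (n = 136) and 0.28 for GAGA (n = 219), as descriptions over promoters. Because the match nearest the summit was taken, promoters with several matches lean toward agreement.

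Among the elements, height differed most by the TCT motif, whose members are mostly ribosomal protein genes. Members with a TCT motif had a median height of 289 against 108 without it, and relative heights of 2.80 and 2.32 in replicates 1 and 3 against 0.97 and 0.96. Among the 289 highest members 32 had the motif (11.1%), and among the 289 lowest 4 did (1.38%). Of the 40 TCT members, 28 were genes of cytoplasmic ribosomal proteins, with a median height of 368, and the 12 others had 128 (range 76.7 to 389). The 12 ribosomal protein members without the motif had a median of 314, and the 815 other members 107.8. These medians come from groups of 28, 12 and 12 peaks. A member without the motif is one with no exact match within 10 bp of the annotated TSS. The parts of gene group and motif in the heights were not tested. Median heights with and without the element were 122 and 109.8 for the DPE (20 members), 111 and 109.5 for the DRE, 105 and 111 for Motif 7, 109.4 and 110.2 for the initiator and 105 and 110.3 for the TATA box.

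The highest member was the peak at CG14100 (chr3L:19590425-19590811 in dm6, a gene without a name on the minus strand), whose summit lay between genes 96 bp before the TSS. Its height was 785 in replicate 1 and 549.96 in replicate 3 (1333 pooled), so that it stood 11.4 and 11.9 times as high as the median optimal peak. Of the elements searched it had an E-box alone. RpL23A (chr3L:1668486-1668978), whose protein lines the exit of the ribosomal tunnel, was next with 789.6 and 508 (1291 pooled), 104 bp upstream. Ugalt, the transporter of UDP-galactose into the Golgi, was the third with 693 and 509.8 and a summit 30 bp upstream in the pooled list and in both replicates. These 3 stood apart from the rest of the members, since the fourth, RpLP0, had a pooled height of 887.

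Below them, RpLP0, a protein of the ribosomal stalk, had a relative height of 7.60 ± 0.75 (mean ± SD, n = 2, as for the values that follow), CenG1A, a GTPase-activating protein for Arf, 7.73 ± 1.04, mRpL41, of the mitochondrial ribosome, 6.94 ± 1.10, and CG18549 6.93 ± 0.67. CenG1A, CG18549 and mRpL41 had their summits 106, 105 and 145 bp upstream and CG31145 one at 177 bp (5.82 ± 0.11). CG13921 had 5.58 ± 0.13 at 134 bp. Near summits at this height were those of eEF1gamma (16 bp; 5.37 ± 0.12), of the Y-box RNA-binding protein gene yps (32 bp; 5.13 ± 0.66) and of Nacalpha, a subunit of the complex that meets nascent chains at the ribosome (37 bp; 4.96 ± 1.63). Nacalpha had the widest gap of the 25, with 6.11 in replicate 1 and 3.81 in replicate 3. Alg3, a mannosyltransferase of N-glycan synthesis, Tina-1, brwl, eIF6, which keeps ribosomal subunits apart, and CG5098 completed the 15 among the 25 highest that are not cytoplasmic ribosomal protein genes, with relative heights from 4.15 to 5.18. In all 25 both replicates were at least 3.64 times the median optimal peak.

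**Figure D5:**
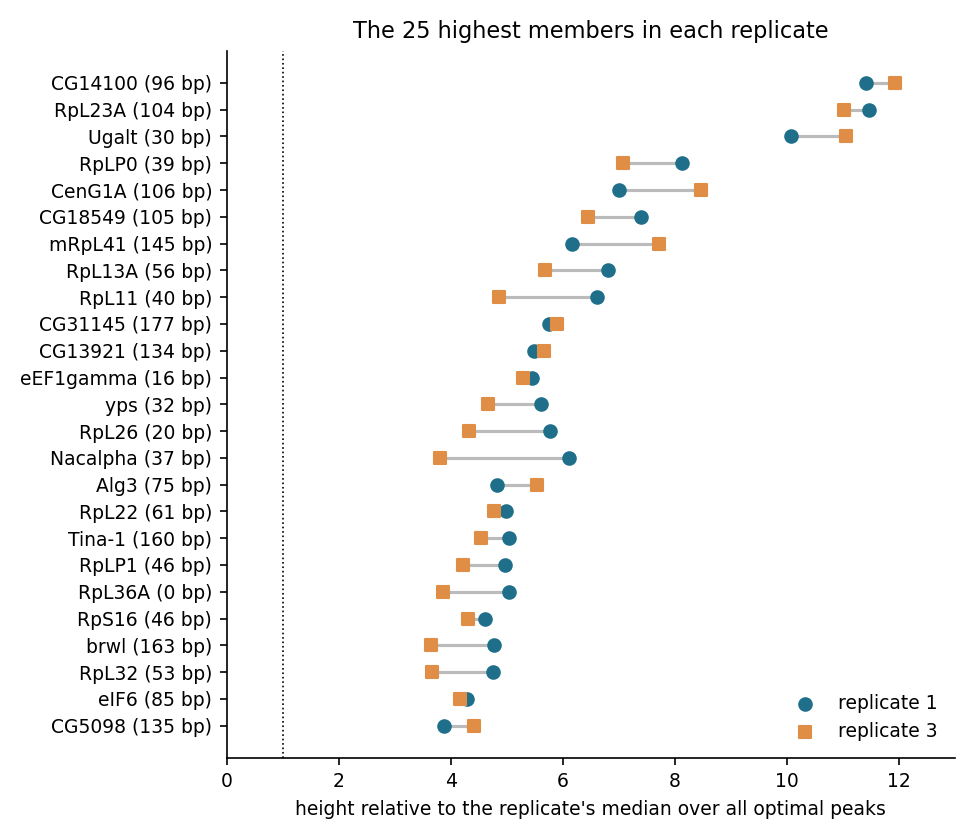
Relative height of the 25 highest members in replicate 1 (blue circles) and replicate 3 (orange squares), as height divided by that replicate's median over all optimal peaks (horizontal axis; dotted line at 1); the distance of the summit upstream of the TSS is given beside each gene. CG14100, RpL23A and Ugalt lie above 10 in both replicates, and all others lie between 3.64 and 8.47.

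Genes of cytoplasmic ribosomal proteins were the largest named group. Of 91 such genes, 40 (44.0%) had a member peak, where 6.18% of all coding genes did, 26 of 53 for the large and 14 of 38 for the small subunit. A further 24 were nearest to a downstream summit, where 2.34% of all coding genes were. The frequency of this group was thus not particular to the members. Another 13 were nearest to a peak between divergent genes, a class whose share over all coding genes was not counted. Pooled heights of the 40 ranged from 100.2 to 1291 with a median of 348, and 39 were above the median of all optimal peaks, against 378 of the 827 other members (45.7%). Of the downstream peaks 103 of 327 were above it, and 82 of 303 without ribosomal protein genes, so these genes were high there too. Their summits lay a median of 38.5 bp upstream, against 74 bp in the other members. RpL11 had heights of 455 and 224 in replicates 1 and 3, RpL13A 469 and 262, RpL26 397 and 199, and RpS16 317 and 199. Relative height was larger in replicate 1 in 33 of the 40, with a median log2 difference of 0.24, while in the other members that was so in 54.2%, with a median of 0.05. The group was known to be frequent among these peaks when the lists were drawn up, so its count is a description.

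Other genes of protein synthesis and energy supply gave lower shares. Of 53 translation factors 12 (22.6%) were, among them eEF1gamma, eIF6 and eEF5 (the factor that carries hypusine; height 444), with a median height of 126. Of 75 mitochondrial ribosomal proteins 6 were (8.0%), led by mRpL41 at 773, while their median was 100.03. Of 33 aminoacyl-tRNA synthetases 3 were: AsnRS (149.7), ThrRS (140.4) and IleRS (129). Respiratory chain and ATP synthase genes gave 8 of 89 (8.99%), the highest being ND-ASHI of complex I at 233, and proteasome subunits 1 of 48, Rpn10 at 84.3. Except for the translation factors, these shares ran from 2.08% to 9.09%, on both sides of the background of 6.18%.

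Genes of nuclear processes gave shares of 7.25% to 13.3%, where 6.18% of all coding genes had a member peak, and with 15 to 69 genes a list most of these are near that background. Of 69 genes of RNA polymerase II and its general factors 5 were members, among them MED4 of the Mediator (height 246), the polymerase subunit gene Polr2F (240.3) and TfIIA-S, the small subunit of TFIIA (166). Of 40 splicing factors there were 3 (Prp31, Sf3a1 and B52), of 43 cell cycle and replication genes 4, with stg, the Cdc25 phosphatase of the embryonic divisions, at 176, and of 15 insulator and interband proteins 2, BEAF-32 (96.3) and M1BP (81.2). NC2alpha itself had a summit 95 bp before its TSS, of height 267, but with a coding TSS on the opposite strand in the window, so that it was not a member. The nearest optimal summit to NC2beta was 2127 bp away, and that to Tbp, which codes for the TATA-binding protein, 2418 bp away, at eIF3k.

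Patterning genes were present at low height. Of 27 segmentation genes 7 (25.9%) were members, where 6.18% of all coding genes were, with a median height of 79.4, and their summits lay far upstream, at a median of 149 bp. The maternal anterior determinant bcd had the highest of these peaks, 104 in replicate 1 and 67.6 in replicate 3 (171 pooled), 225 bp before its TSS. Kr, a gap gene, had 45.1 and 48.2 at 27 bp, and wg, the Wnt ligand, 52.6 and 28.4 at 149 bp. The others were opa, a pair-rule gene (79.4 pooled), the Hedgehog receptor ptc (76.8), the Wnt antagonist nkd (76.6) and the head gap gene oc (74.9), all close to the lowest member height of 74.2. Of 20 dorsoventral genes 2 were members, rho and vnd, of 15 of the E(spl) and Bearded family 2, and of 8 Hox genes 0, lists too short to be read against 6.18%. Some of these low summits changed side, since in replicate 3 the nearest summit was 14 bp downstream of the TSS in Kr and 57 bp downstream in rho.

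Heat shock protein genes gave 6 members of 26 (23.1% against 6.18% of all coding genes), with a median height of 160.5 and summits at a median of 112.5 bp. Hsp83, which codes for the Hsp90 chaperone, led them with 259 in replicate 1 and 176 in replicate 3, 95 bp upstream, followed by Hsp27 (135 and 76.4; 130 bp) and Hsp26 (116 and 56.5; 168 bp). Hsc70-4, DnaJ-1 and Hsp68 had pooled heights of 145, 143 and 134. A further 3 of the 26 were nearest to a downstream summit, where 2.34% of all coding genes were. A high share was thus not particular to the members. Of 121 cuticle protein genes 0 had a member peak. Of 230 genes of chemoreceptors and odorant-binding proteins 1 had one (0.435%, Obp99b with height 194). Both were below the 6.18% of all coding genes.

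The replicates disagreed most at a few genes. Vps33B, a protein of vesicle fusion, had a relative height of 2.51 in replicate 1 and 0.32 in replicate 3, Tapdelta, of the translocon-associated complex, 1.10 and 0.23, and CG3760 1.07 and 0.28. In the other direction Tmem18 had 0.82 and 3.36, CG17249 0.37 and 1.01 and Efa6, an Arf exchange factor, 0.47 and 1.23. In Vps33B, Tapdelta, CG3760, Tmem18 and Efa6 the nearest regions of the replicates also had summits over 50 bp apart, so that these ratios may compare different regions.

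By chromosome arm, genes with a member peak were 5.68% of the coding genes of 2L, 6.35% of 2R, 6.68% of 3L, 6.17% of 3R and 5.83% of X, and 8 of the 80 genes of chromosome 4. The median height went from 94.5 on chromosome 4 to 115 on 2L.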

How the data were processed

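Anti-GFP ChIP-seq of NC2beta-eGFP embryos was deposited as peak lists in dm6 for replicate 1, replicate 3, both pooled (30000 regions each) and an optimal list chosen by irreproducible discovery rate. The sources used here name no aligner or peak caller, reads and control were not analysed here, and depth is unknown. The height is the signal value the authors deposited per region, and the lists also hold a −log10 of a q-value, as deposited by the authors, which was not tested. The lists in dm3 were not used.

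Summits were set against coding TSSs of Ensembl release 115, and elements against the Release 6 genome. Replicate values are those of the nearest region within 250 bp. Shares were compared with Fisher's exact test (SciPy 1.17.1, pandas 2.3.3, Python 3.11.15) with Benjamini-Hochberg adjustment over 12 elements; the scripts were tested on simulated data. Peaks are counted as features of these 2 libraries, and intervals cover counting error only. The members and the 18 gene lists were chosen with earlier results of these data known. Apart from NC2alpha, NC2beta and Tbp, genes named are those with a region in both replicates. They were the 25 highest, the 3 highest per list and the 3 highest per element outside arm 2R. The 3 with the largest replicate difference each way and those nearest each threshold were added. Others are said to be chosen later, as are list members given to complete a list. Alternatives were other distances, start sites, heights, gene contents, mismatches, windows and single replicates.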

Additional observations from a re-analysis of the deposited data

How the results depend on the processing

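With 2 libraries of 1 group, unknown depth and heights of unknown unit, the lists limit what can be compared. No paired analysis was possible because there is 1 group. The members numbered 417 among the peaks at or above the median height and 540 at genes with 1 TSS, by construction of fewer peaks and genes. The upstream share of 72.6% became 80.2%, 78.5% and, without summits within 25 bp of the TSS, 77.7%, and the cause was not tested. With a single replicate's highest regions there were 801 to 870 members and a share of 71.1% to 71.3%. Without ribosomal protein genes, or with no opposite-strand TSS within 500 bp (both chosen after the data were seen), the share was 73.2% and 72.2%. The higher heights of upstream peaks kept their direction and stayed below the threshold of 0.05 in all 7 alternatives. The number of elements that differed became 1 with TSSs within 100 bp (the initiator) and was 0 in the 9 other alternatives. Odds ratios that crossed 1 were as follows, and none of these had an adjusted p under 0.05 before or after. Among peaks at or above the median height they were 1.15 for the initiator, 3.02 for the DPE, 2.51 for Motif 6, 0.861 for Motif 7 and 0.852 for the E-box. The DPE was there at 12 of 417 upstream and 1 of 103 downstream peaks, and Motif 6 at 10 and 1. Their odds ratios thus rest on 1 downstream peak each. With TSSs within 100 bp they were 1.12 for TCT, 1.13 for the DRE and 1.17 for Motif 1. With replicate 3 alone they were 1.28 for TCT, 0.918 for Motif 7, 1.01 for GAGA, 0.239 for the Zelda motif (3 of 801 against 5 of 323 peaks) and 0.906 for the E-box. For the same elements with replicate 1 alone, where Motif 7 was the one to cross, they were 0.856, 0.897, 0.827, 1.63 and 1.02. Without summits within 25 bp they were 1.00 for TCT, 0.571 for the Zelda motif and 0.839 for the E-box. Without ribosomal protein genes they were 2.22 for TCT and 0.923 for the E-box, and at genes with 1 TSS 1.22 for the DRE and 0.969 for the E-box. With no opposite-strand TSS within 500 bp they were 0.769 for the Zelda motif and 0.897 for the E-box. In the window moved 200 bp upstream they were 1.13 for TCT, 1.84 for the DRE, 1.26 for GAGA and 0.753 for the Zelda motif. The cause was not tested.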
